A study of Sus scrofa with 15 samples.

Results

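The 9 genes described here encode the DNA methyltransferase family (*DNMT1*, *DNMT3A*, *DNMT3B* and the inactive *DNMT3L*), 2 related DNA-binding ubiquitin ligases (*UHRF1*, *UHRF2*) and proteins of the methyl-CpG binding domain family (*MBD1*, *MBD2*, *MBD3*). They were taken from the deposited expression table by gene symbol and are 9 of 28224 known genes and 43294 features in all. Each was read in 15 RNA-seq libraries of pig cells and embryos, and each is also given with the assembled transcripts, that is, transcripts without a gene name that the authors' read assembly added at the same locus.

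The libraries fell into 5 groups of 3. PFF were fetal fibroblasts at passages 2 to 5, the nuclear donors of the cloned embryos. SCNT4c and SCNT8c were untreated embryos made by somatic cell nuclear transfer (SCNT) and collected with 4 or 8 cells. SCNT4c-KG were 4-cell embryos injected with *KDM4A* mRNA, which encodes an H3K9 demethylase (1000 ng/µl, 5 h after activation), and kept for the first 48 h in GSK126, which blocks the H3K27 methyltransferase EZH2 (0.1 µM). SCNT4c-TDG were 4-cell embryos whose donor fibroblasts carried a doxycycline-inducible *TDG* vector and had been selected with puromycin, with doxycycline at 500 ng/ml from 40 to 72 h. No library with doxycycline or puromycin selection alone was analysed here, so these cannot be told apart from *TDG* itself. Likewise no mock-injected library and none with *KDM4A* or GSK126 alone was analysed here, so in SCNT4c-KG the injection and both agents cannot be told apart. Each embryo library was a pool of 30 embryos. In such bulk samples fewer cells of a type and less RNA per cell cannot be told apart, and embryo RNA was extracted with another kit than PFF RNA, so extraction and group cannot be told apart between them.

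In mammals, DNMT1 copies methylation onto the new DNA strand after replication and is brought there by UHRF1, which recognises CpG sites methylated on the old strand only. DNMT3A and DNMT3B methylate previously unmethylated sites, with DNMT3L as a partner that has no enzyme activity of its own. UHRF2 resembles UHRF1 but does not replace it in maintenance and binds hydroxymethylated DNA. MBD1 and MBD2 bind methylated CpG sites and recruit repressors, MBD2 as part of the NuRD complex, in which MBD3 can take its place. During the first cleavages much of the methylation carried by the gametes, or by the donor nucleus after nuclear transfer, is normally lost while maternal mRNA is replaced by transcripts of the embryo.

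Depth, as reads recovered from the table, lay between 22224949 and 22868038 per library in PFF, 20460653 and 22530486 in SCNT4c, 18083559 and 19549670 in SCNT8c, 12354649 and 15390472 in SCNT4c-KG, and 17757929 and 19564459 in SCNT4c-TDG. A single read was worth between 0.765 and 1.63 units of normalised read count (a read count divided by one factor per library), so a value near 3 rests on a few reads. *KDM4A* was at 1429 to 1476 in SCNT4c-KG against 134 to 313 in SCNT4c, and at 555 to 918 in SCNT4c-TDG, which was not injected with it. *TDG* was at 49857 to 59944 in SCNT4c-TDG against 939 to 2541 in SCNT4c, and at 3886 to 4738 in SCNT4c-KG, which did not carry the vector. The 10 fibroblast markers summed to 3845486 to 4081593 in PFF and 1618 to 5448 in the embryos, with *PDGFRA* at 0 in all libraries. Of the 10 oocyte and maternal markers, 9 were at 0 in PFF, and *GDF9*, *BMP15* and *MOS* were at 0 in every embryo library as well. The 7 cumulus or granulosa cell markers in the table summed to at most 236 in any library. The labels conflict on SCNT4c and SCNT4c-KG. Columns exist under both names and were assigned by the sample titles, but the description field of the SCNT4c-KG samples holds the column names of SCNT4c. If the descriptions held and these columns were exchanged, every direction between SCNT4c and SCNT4c-KG would turn, and the other comparisons with either group would concern the other one. *KDM4A* was higher in each library of the columns named for SCNT4c-KG, as given above. Within SCNT4c the numbers of titles and descriptions differ, so its libraries are called a, b and c. The description of SCNT8c replicate 3 also carries another number than its title and column. SCNT8c replicate 3 stood apart from its group: its log2 values over 18942 features correlated at a mean r of 0.859 with the SCNT4c libraries and of 0.772 with SCNT8c replicates 1 and 2, which correlated with each other at 0.878. Calls of the 9 genes that rest on it, and counts of pathway genes that move by over 1.5 times, are given with and without it.

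The table lists entries whose zeros cannot be read as silence. Of 39 other genes of the DNA methylation pathway looked up by symbol, 38 were matched (all but *MTA1*), and 8 were listed at 0 in every library including the fibroblasts, among them *USP7*, a deubiquitinase, and *LIG1*, the replicative DNA ligase, both used by dividing cells in general. This was compared over known genes with an Ensembl ID and a symbol that does not start with LOC. Those that share a locus with an assembled transcript had a median PFF value of 21.3 (8506 genes), against 382 for those that do not (5015 genes). The counting mode and strand setting of the authors' read counter are not given in the sources used here. *DNMT3B*, *UHRF2* and *MBD2* stand alone at their loci, whereas *DNMT1*, *DNMT3A*, *DNMT3L*, *UHRF1*, *MBD1* and *MBD3* share theirs with at least 1 assembled transcript, so low values of these entries are given beside that transcript.

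By gene entry, *UHRF2*, *DNMT3B* and *MBD2* held the most reads per kilobase of exon in SCNT4c. The 250 bases before the annotated starts of *DNMT3B* and *MBD2* (RefSeq release 106, Sscrofa11.1, gene strand, CpG sites in capitals) are shown here because *DNMT3B* had its highest mean and *MBD2* its second lowest mean in that group. *UHRF2* lies on chromosome 1 (215730212 to 215807630, minus strand, 17 merged exons), *DNMT3B* on chromosome 17 (36345715 to 36386076, plus strand, 22 merged exons) and *MBD2* on chromosome 1 (103683077 to 103768372, minus strand, 11 merged exons).
DNMT3B, chr17:36345465-36345714, plus strand: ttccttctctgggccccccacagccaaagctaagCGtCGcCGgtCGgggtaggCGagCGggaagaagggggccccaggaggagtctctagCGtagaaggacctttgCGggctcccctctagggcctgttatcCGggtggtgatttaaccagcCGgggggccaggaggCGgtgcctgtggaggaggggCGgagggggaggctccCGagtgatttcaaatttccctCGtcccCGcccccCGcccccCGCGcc
MBD2, chr1:103768373-103768622, minus strand: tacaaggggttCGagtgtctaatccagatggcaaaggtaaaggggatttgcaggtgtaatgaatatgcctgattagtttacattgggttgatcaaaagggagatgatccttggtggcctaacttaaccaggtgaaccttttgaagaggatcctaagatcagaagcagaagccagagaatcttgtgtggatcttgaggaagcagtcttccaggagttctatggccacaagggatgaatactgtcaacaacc
The window of *DNMT3B* holds 18 CpG sites and that of *MBD2* holds 1, against a median of 12 over 19556 pig promoters of the same length. The GC box GGGCGG, searched on both strands, occurs 3 times before *DNMT3B* and not before *MBD2*, and 45.9% of all these promoters hold at least 1. The CCAAT motif, searched on both strands, does not occur before *DNMT3B* and occurs once before *MBD2* (31.9% of all promoters hold it). The E2F motifs TTTCCCGC and TTTGGCGC, searched on both strands, occur in neither window and in 1.98% of all. Whether transcription in these cells starts at the annotated positions was not tested.

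*UHRF2* was the most abundant of the 9 genes per kilobase of exon in every group. Its normalised read count was 3545, 3649 and 3680.4 in the PFF libraries and 79139, 90597 and 80714 in SCNT4c, where it took 0.436 to 0.507% of each library and its mean ranked 17 among all 43294 features (1273 in PFF). In SCNT8c it was 19782, 8143 and 96487, so replicate 3 lay above all SCNT4c libraries and the others below them. The SCNT4c-KG values were 6663, 7357 and 7982 and the SCNT4c-TDG values 23262, 27776 and 38077. In the order of group means SCNT4c, SCNT8c, SCNT4c-TDG, SCNT4c-KG and PFF, the ranges of the last 3 did not overlap, while SCNT8c overlapped both of its neighbours.

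**Figure D1:**
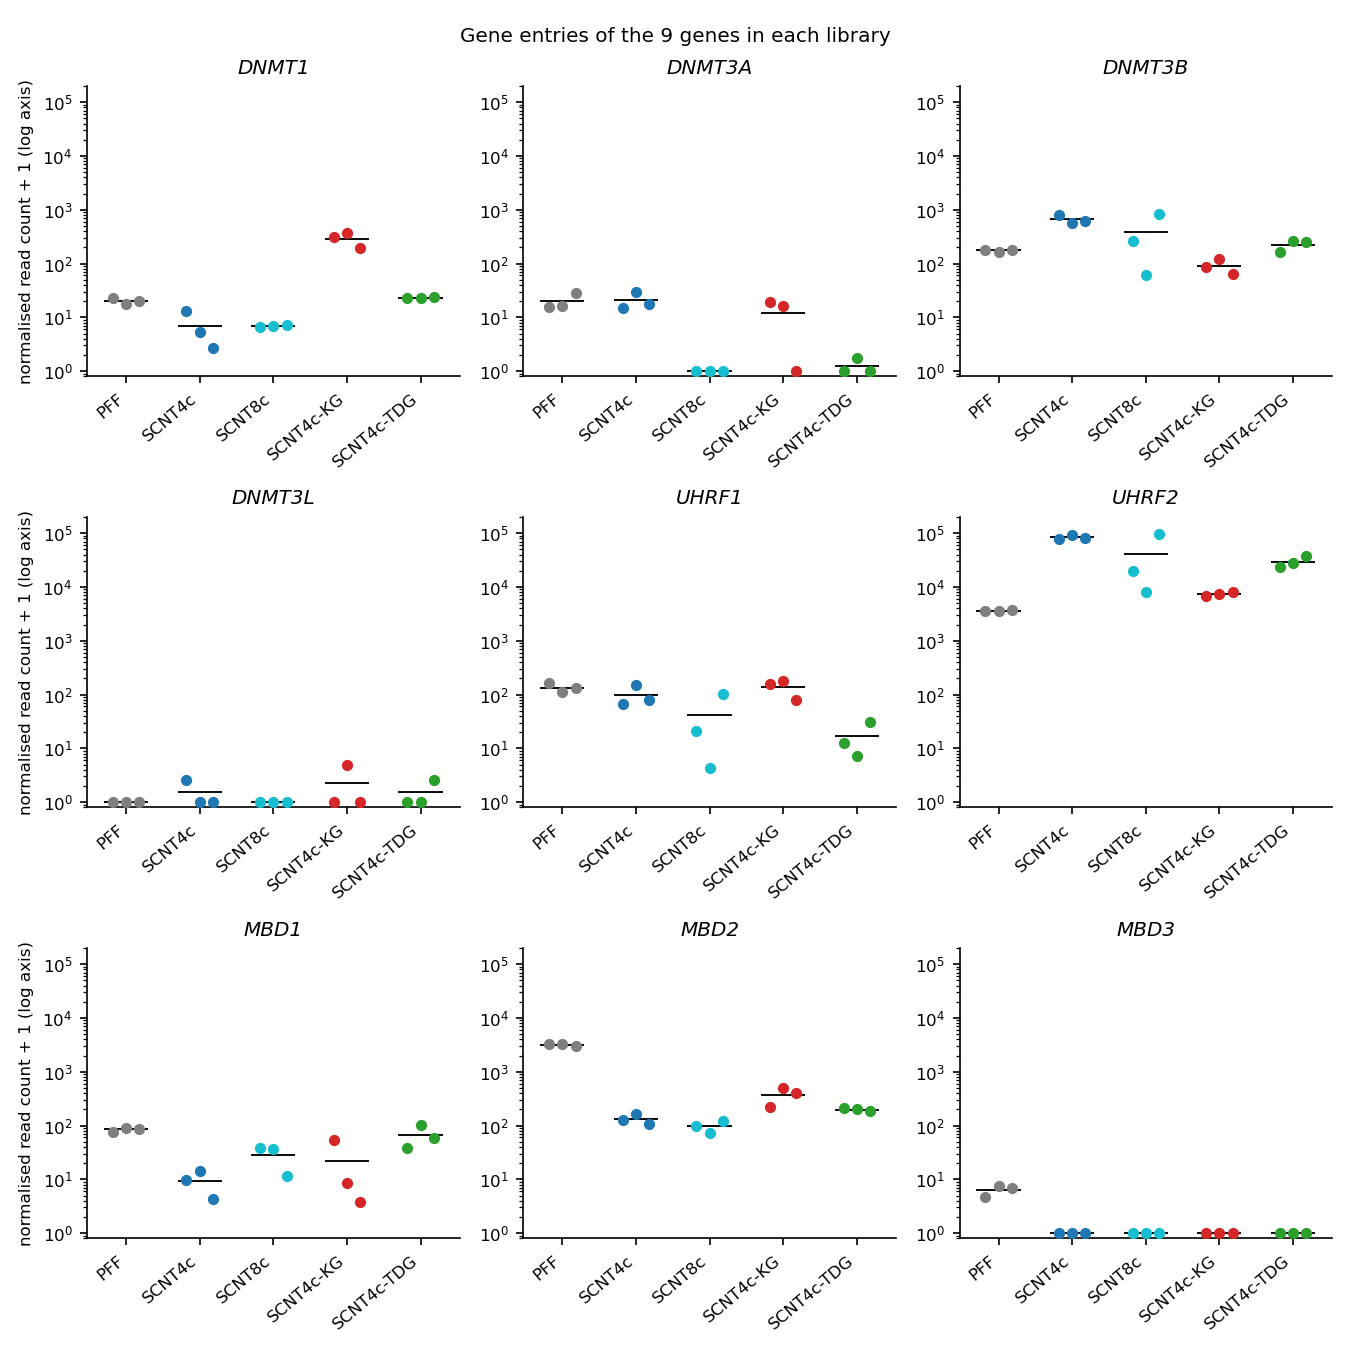
Normalised read count plus 1 (log axis) of the 9 gene entries in each of the 15 libraries; points are libraries and lines are group means of 3. *UHRF2* sits between 79139 and 90597 in SCNT4c and between 6663 and 7982 in SCNT4c-KG, *MBD2* falls from 3183 in PFF to 132 in SCNT4c, and *MBD3* is listed at 0 in all embryo libraries.

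*DNMT3B*, the most abundant de novo methyltransferase per kilobase in every group, had the same order of group means down to the last pair. It was at 181, 166 and 180.0 in PFF and at 813, 569 and 617 in SCNT4c. The SCNT8c libraries scattered from 59.0 in replicate 2 and 263 in replicate 1 to 833 in replicate 3. Values were 84.9, 121 and 62.7 in SCNT4c-KG and 166, 258 and 248 in SCNT4c-TDG. SCNT4c-KG was thus the lowest group and did not overlap PFF, whereas SCNT4c-TDG overlapped both PFF and SCNT8c.

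*UHRF1*, the partner of DNMT1 at replication forks, differed little between 3 of the groups. It was at 161, 108 and 129 in PFF and at 67.0, 151 and 78.0 in SCNT4c. The SCNT4c-KG libraries had 155, 178 and 78.4, and these 3 groups overlapped each other. In SCNT4c-TDG it was lower, at 11.7, 6.14 and 29.8, which rest on 14, 8 and 39 reads. In SCNT8c it was 19.6, 3.33 and 100.4, with replicate 3 again apart from the others. The gene lies on chromosome 2 (73898061 to 73937727, minus strand) and its exons overlap those of *ARRDC5* on the other strand, whose reads could not be told apart from its own without strand. *ARRDC5* was listed at means of 0 to 6.80 in the groups, and the assembled transcript MSTRG.23656 had 1 read in all libraries together.

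*MBD2* ran opposite to *UHRF2* in all groups but SCNT8c. It was at 3320.3, 3219.7 and 3008 in PFF and between 70.7 and 495 in all embryo libraries. The SCNT4c libraries had 128, 163 and 104, the SCNT8c libraries 97.1, 70.7 and 120.4, the SCNT4c-KG libraries 222, 495 and 398, and the SCNT4c-TDG libraries 207, 198 and 186. The order of means was PFF, SCNT4c-KG, SCNT4c-TDG, SCNT4c and SCNT8c, and only the last 2 groups overlapped.

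*DNMT1* was low as a gene entry and shares its locus with the assembled transcript MSTRG.23171 and with *S1PR2*, a receptor gene, so the reads of that transcript cannot be assigned to *DNMT1* alone. The gene lies on chromosome 2 (68981564 to 69040364, minus strand, 43 merged exons). Its entry was at 22.0, 16.6 and 19.1 in PFF, at 11.8, 4.37 and 1.66 in SCNT4c (15, 5 and 2 reads), and at 5.60, 5.82 and 6.34 in SCNT8c. In SCNT4c-KG it reached 310.4, 367 and 192, above every other library, and in SCNT4c-TDG it was at 21.7, 21.5 and 23.0. The assembled transcript was nearly absent from PFF, at 1.22, 6.37 and 3.58. It was at 114, 111 and 115 in SCNT4c, at 26.1, 28.3 and 145 in SCNT8c, at 459, 421 and 312 in SCNT4c-KG and at 207, 226 and 218 in SCNT4c-TDG. Both entries were thus highest in SCNT4c-KG and higher in SCNT4c-TDG than in SCNT4c, but they ran in opposite directions between PFF and SCNT4c. The gene entry and the assembled transcript, summed without *S1PR2*, had means of 22.9 ± 0.283 (SD, n = 3) in PFF, 119 ± 5.38 in SCNT4c, 72.3 ± 68.2 in SCNT8c, 687 ± 159 in SCNT4c-KG and 239 ± 9.89 in SCNT4c-TDG. *S1PR2*, which does not overlap *DNMT1* in the annotation, had means of 904 in PFF and 31.8 to 122 in the embryo groups. With it, all entries at the locus came to 927 ± 5.84 in PFF, 241 ± 89.5 in SCNT4c, 179.6 ± 57.6 in SCNT8c, 719 ± 173 in SCNT4c-KG and 299 ± 13.4 in SCNT4c-TDG, so that the order of PFF and SCNT4c depends on which entries are added.

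**Figure D2:**
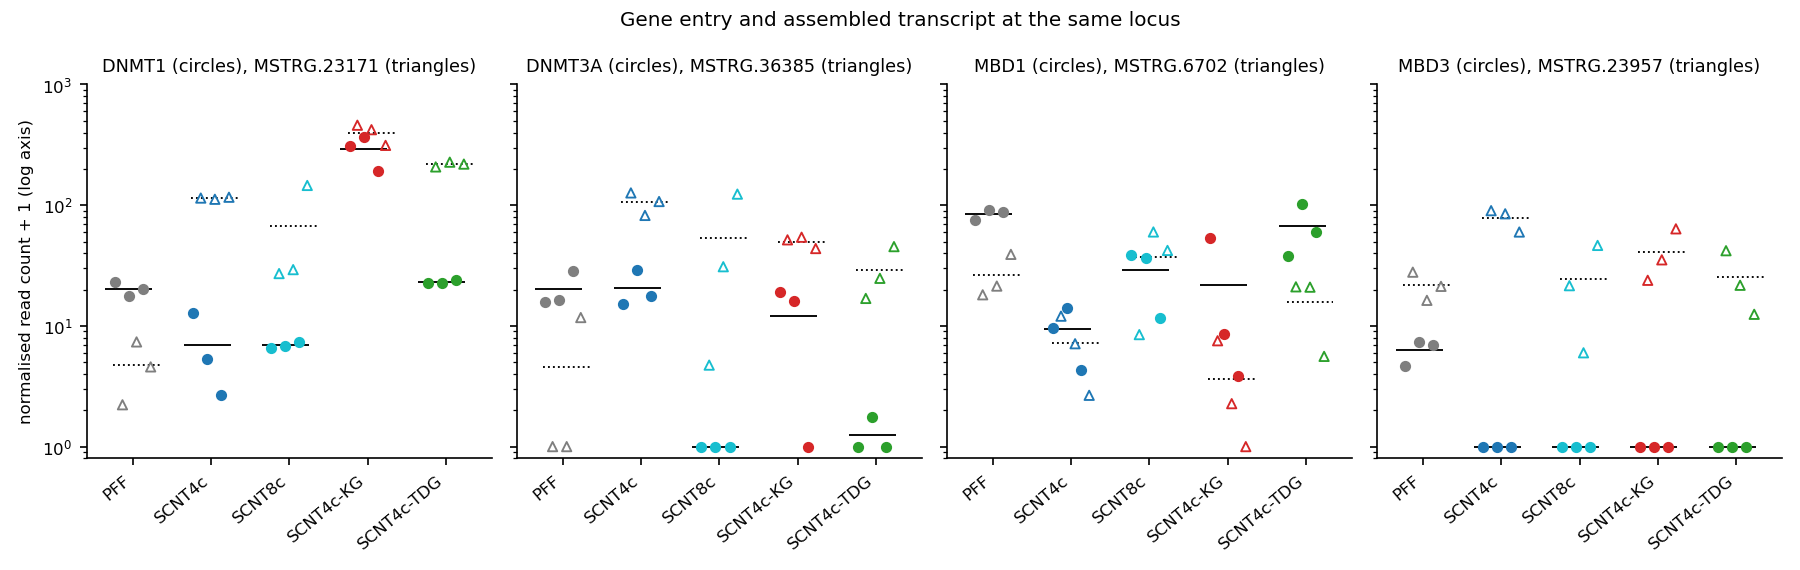
Normalised read count plus 1 (log axis) of 4 gene entries (filled circles, solid group means) and of the assembled transcript at the same locus (open triangles, dotted group means) in each library. At *DNMT1* the triangles lie at 111 to 115 in SCNT4c where the circles lie at 1.66 to 11.8, and at *MBD3* only the triangles leave 0 in the embryos.

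*DNMT3A*, on chromosome 3 (113501972 to 113609148, plus strand, 33 merged exons), was at 14.7, 15.3 and 27.4 in PFF and 14.2, 28.0 and 16.6 in SCNT4c. It was listed at 0 in all SCNT8c libraries, in 1 of the 3 SCNT4c-KG libraries (18.0 and 15.2 in the others) and in 2 of the 3 SCNT4c-TDG libraries (0.767, or 1 read, in the other). The assembled transcript at its locus, MSTRG.36385, was at 0, 0 and 10.7 in PFF and 125, 81.3 and 106 in SCNT4c. It was at 3.73, 29.9 and 123 in SCNT8c, 50.6, 53.3 and 42.7 in SCNT4c-KG and 15.9, 23.8 and 44.4 in SCNT4c-TDG. The locus as a whole was therefore read in all embryo groups, including the one in which the gene entry is at 0.

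*DNMT3L*, on chromosome 13 (207119025 to 207141990, minus strand), was at 0 in 12 of 15 libraries. The others held 2 reads in SCNT4c library a, 3 in SCNT4c-KG replicate 2 and 2 in SCNT4c-TDG replicate 3, and its assembled transcript had 4 reads in SCNT4c library b alone. At this depth no difference between groups was detectable.

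*MBD1*, on chromosome 1 (99848193 to 99917347, minus strand, 50 annotated transcripts), was at 74.5, 90.4 and 87.0 in PFF and 8.68, 13.1 and 3.32 in SCNT4c. Values were 37.3, 35.7 and 10.6 in SCNT8c, 36.8, 102 and 58.9 in SCNT4c-TDG, and 52.3, 7.61 and 2.85 in SCNT4c-KG, where replicate 1 held most of the reads. PFF did not overlap SCNT4c, SCNT8c or SCNT4c-KG, and SCNT4c-TDG did not overlap SCNT4c. The assembled transcript MSTRG.6702 was at 17.1 to 38.1 in PFF and at 0 to 59.0 in the embryo libraries, and *CFAP53*, whose exons overlap on the same strand, was at 0 in every library.

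*MBD3*, on chromosome 2 (76913880 to 76923435, plus strand), was at 3.66, 6.37 and 5.96 in PFF (3 to 5 reads) and was listed at 0 in all 12 embryo libraries. The assembled transcript MSTRG.23957 at its locus was at 26.9, 15.3 and 20.3 in PFF, 89.1, 83.9 and 58.9 in SCNT4c, 20.5, 4.99 and 45.4 in SCNT8c, 22.9, 34.3 and 62.7 in SCNT4c-KG and 41.0, 20.7 and 11.5 in SCNT4c-TDG. Another, MSTRG.23955, had 6 reads in SCNT4c library b alone. *TCF3* carries the same locus without overlapping *MBD3* in the annotation, and was at means of 0 to 10.1. As the locus holds several genes, these reads cannot be assigned to *MBD3*.

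Levels were compared between genes only per kilobase of merged exon. In SCNT4c, *UHRF2* stood at 17605 ± 1310 normalised reads per kilobase (SD, n = 3), against 90.8 ± 17.6 for *DNMT3B* and 23.5 ± 5.35 for *MBD2*. *UHRF1* stood at 21.9 ± 10.2 and the *DNMT1* entry at 0.997 ± 0.882. That entry held 22 reads in SCNT4c, beside 410 of the assembled transcript MSTRG.23171 at its locus. The SCNT4c level of *DNMT1* against the other genes can therefore not be read from the entry alone. In PFF, *UHRF2* and *MBD2* stood close to each other at 764 ± 14.9 and 568 ± 28.4 per kilobase, and *UHRF1* and *DNMT3B* at 29.5 ± 5.94 and 23.9 ± 1.17. In SCNT4c-KG, the *DNMT1* entry reached 48.5 ± 14.9 per kilobase, above *UHRF1* at 30.5 ± 11.6 and *DNMT3B* at 12.2 ± 3.98.

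The first comparison asks how the cloned embryo differs from its donor cell. *UHRF2* was 23.0-fold and *DNMT3B* 3.74-fold higher in SCNT4c than in PFF, while *MBD2* was 24.4-fold, *MBD1* 10.1-fold and the *DNMT1* entry 3.54-fold lower. A feature is called changed at a limma adjusted p under 0.05 over all features and a fold change above 2, and fold changes are on the log2(value + 1) scale, which understates those of low entries. By this rule 5 of the 7 genes tested changed, where 78.2% of all 19287 features did, so the share is near that of the table as a whole. They were 2 higher and 3 lower, where 39.7% of features were higher and 38.5% lower. The log2 fold changes were 4.52 (SE 0.0712, adjusted p = 4.3e-07) for *UHRF2*, 1.90 (SE 0.197, adjusted p = 0.00017) for *DNMT3B*, -4.61 (SE 0.201, adjusted p = 4.3e-06) for *MBD2* and -3.34 (SE 0.479, adjusted p = 0.00080) for *MBD1*. Over all scalings and libraries left out, *UHRF2* ran from 4.46 to 5.31 and *MBD2* from -4.78 to -3.81, while *MBD1* ran from -4.68 to -2.39 with the scaling and pseudocount. *UHRF1* did not pass (log2 fold change -0.50, 95% interval -1.40 to 0.41, limma adjusted p = 0.25), and its sign turned with library totals made equal, edgeR and DESeq2. *DNMT3A* did not pass either (0.03, -0.96 to 1.03, 0.94), and its sign turned with quantile normalisation.

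The direction at the *DNMT1* locus turned with the entries that were read. The gene entry fell by 1.82 on the log2 scale (SE 0.605, limma adjusted p = 0.030), a call kept without SCNT4c library a but lost without any single one of the other 5 libraries (adjusted p of 0.052 to 0.092) and with edgeR (0.28) or DESeq2 (0.36), whereas its sum with MSTRG.23171 rose by 2.33 (SE 0.216, adjusted p = 0.00010). No direction of *DNMT1* itself is drawn from them, since the reads of MSTRG.23171 cannot be assigned to it alone. The *DNMT3A* locus sum rose by 2.53 (SE 0.42, adjusted p = 0.0016) and the *MBD3* locus sum by 1.55 (SE 0.293, adjusted p = 0.0029). The *MBD1* locus sum fell by 3.01 (SE 0.542, adjusted p = 0.0023), as its entry did. Over the same groups the oocyte and maternal markers summed to 11.5 to 20.3 in PFF and to 66297 to 88039 in SCNT4c, mostly *ZP4*. The part of maternal mRNA in these values was not tested.

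**Figure D3:**
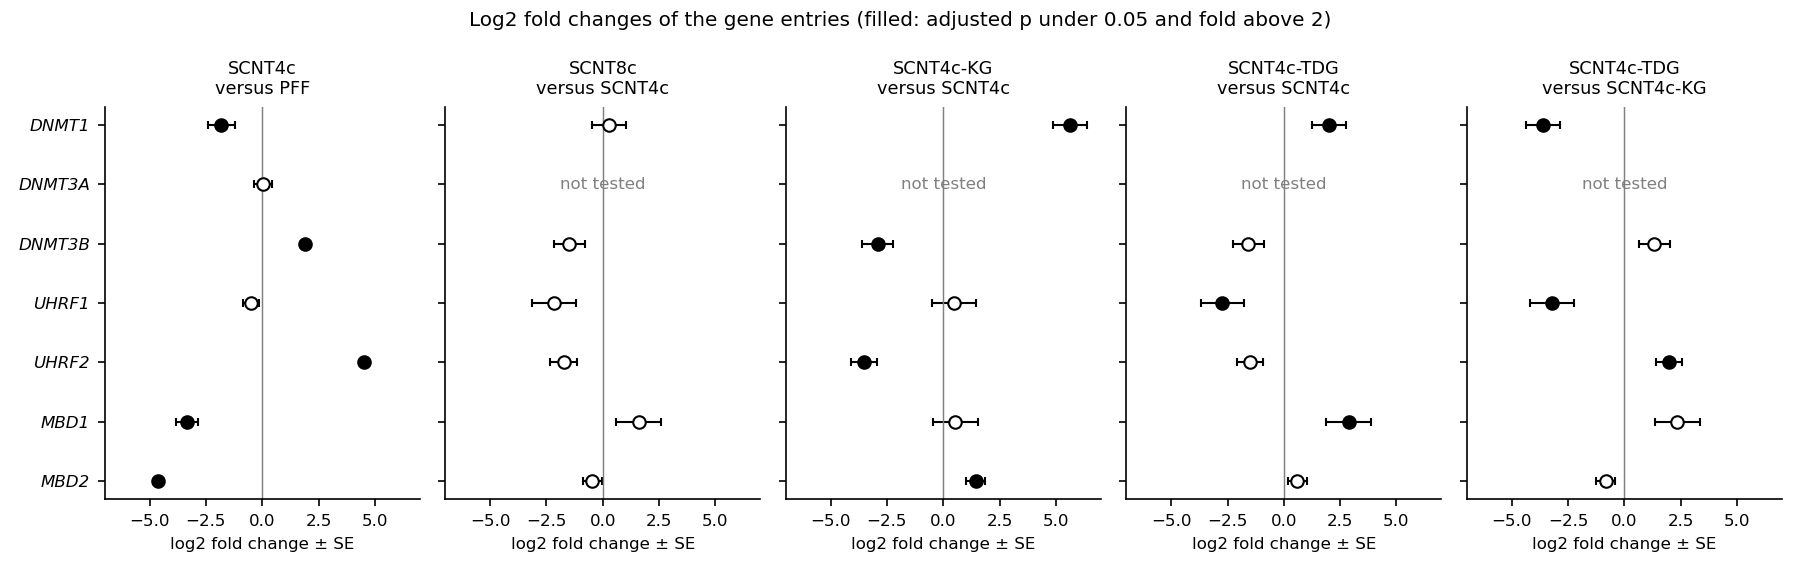
Log2 fold change ± SE of the gene entries in the 5 comparisons, from limma fits across all features, with filled points for changed genes; *DNMT3A* was below the minimum mean in the embryo fit and was not tested there. In SCNT4c-KG against SCNT4c, *DNMT1* lies at 5.63 and *UHRF2* at -3.51.

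The second comparison follows untreated embryos from the 4-cell to the 8-cell stage. None of the 6 genes tested changed between SCNT8c and SCNT4c, where 5.79% of 18942 features did. At an unadjusted p under 0.05 in the same limma fit, 3 of the 6 were below that limit, all lower in SCNT8c, as were 28.9% of all features in either direction, and edgeR and DESeq2 on the recovered reads also called none. The log2 fold changes were -1.74 for *UHRF2* (95% interval -2.98 to -0.50, limma adjusted p = 0.078), -2.17 for *UHRF1* (-4.22 to -0.12, 0.15) and -1.48 for *DNMT3B* (-2.94 to -0.02, 0.17). The result turned on SCNT8c replicate 3. Without it these 3 genes were called lower in SCNT8c, *UHRF2* at -2.71 on the log2 scale (limma adjusted p = 5.2e-05), *UHRF1* at -3.31 (0.0073) and *DNMT3B* at -2.39 (0.0034), and 6133 of all features were then called in place of 1096. *MBD2* (-0.46, 95% interval -1.38 to 0.47), *MBD1* (1.60, -0.52 to 3.71) and the *DNMT1* entry (0.28, -1.31 to 1.88) did not pass in either fit.

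The third comparison sets embryos given *KDM4A* mRNA and GSK126, which act on H3K9 and H3K27 methylation, against untreated ones, and no histone mark is measured in these libraries. In SCNT4c-KG the *DNMT1* entry was 49.4-fold higher than in SCNT4c and *MBD2* 2.71-fold higher, while *UHRF2* was 11.4-fold and *DNMT3B* 7.55-fold lower. These were 4 of the 6 genes tested, where 37.2% of all features changed, 17.6% higher and 19.6% lower, and the same 4 did not overlap between the groups, where 53.9% of features did not. The log2 fold changes were 5.63 (SE 0.75, limma adjusted p = 5.0e-05) for the *DNMT1* entry, which rests on 15, 5 and 2 reads in SCNT4c, -3.51 (SE 0.582, adjusted p = 0.00032) for *UHRF2*, -2.92 (SE 0.687, adjusted p = 0.0041) for *DNMT3B* and 1.44 (SE 0.434, adjusted p = 0.017) for *MBD2*. The *DNMT1* locus sum rose less than its entry, by 2.49 (SE 0.53, adjusted p = 0.0021) or 5.61-fold, and a pseudocount of 10 brought the entry to 4.24. The calls of *UHRF2* and *DNMT3B* held in every alternative run. The *MBD2* call was lost without SCNT4c library c (adjusted p = 0.062), SCNT4c-KG replicate 2 (0.082) or SCNT4c-KG replicate 3 (0.054). *UHRF1* (log2 fold change 0.48, 95% interval -1.57 to 2.53) and *MBD1* (0.53, -1.59 to 2.64, with the sign turned without SCNT4c-KG replicate 1) did not pass, and the *DNMT3A* and *MBD3* locus sums did not either (-1.06 each, limma adjusted p of 0.37 and 0.32).

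The fourth comparison concerns embryos with induced *TDG*, a glycosylase that excises oxidised methylcytosine. *UHRF1* was 6.64-fold lower in SCNT4c-TDG than in SCNT4c, *MBD1* was 7.34-fold higher and the *DNMT1* entry 4.06-fold higher. These were 3 of the 6 genes tested, where 33.3% of all features changed, 15.7% higher and 17.6% lower. All 6 were without overlap between the groups, where 58.4% of features were. The log2 fold changes were -2.73 (SE 0.961, limma adjusted p = 0.039) for *UHRF1*, 2.88 (SE 0.993, adjusted p = 0.036) for *MBD1* and 2.02 (SE 0.75, adjusted p = 0.049) for the *DNMT1* entry. None of these calls was kept in all fits that left out 1 of the 6 libraries compared. *UHRF1* stayed called only without SCNT4c-TDG replicate 3 (adjusted p of 0.063 to 0.15 otherwise), *MBD1* only without SCNT4c library b (0.057 to 0.14 otherwise) and *DNMT1* only without SCNT4c library a (0.10 to 0.16 otherwise). The *DNMT1* and *MBD1* locus sums were 0.997 and 2.51 higher on the log2 scale with limma adjusted p of 0.16 and 0.0501, and neither passed.

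*UHRF2* and *DNMT3B* lay lower in every SCNT4c-TDG library than in any SCNT4c library but missed the threshold, with log2 fold changes of -1.52 (SE 0.582, limma adjusted p = 0.056) and -1.58 (SE 0.687, adjusted p = 0.088). Both were called when the fit left out SCNT8c replicate 3 (adjusted p = 0.00039 and 0.015), and when SCNT4c-TDG and SCNT4c were fitted alone (0.00013 and 0.0011). *UHRF2* was also called with a pseudocount of 10 (0.044) and a minimum mean of 50 (0.047). With quantile normalisation its difference shrank to -0.73 (limma adjusted p = 0.27), the adjusted p of *DNMT3B* was 0.10, and neither was called with any other scaling, edgeR, DESeq2 or a compared library left out (0.075 to 0.16 for *UHRF2* and 0.096 to 0.23 for *DNMT3B*). *MBD2* was 0.60 higher on the log2 scale (95% interval -0.32 to 1.53, limma adjusted p = 0.30). In these groups the oocyte and maternal markers summed to 66297 to 88039 in SCNT4c, 36770 to 45708 in SCNT8c, 29424 to 56570 in SCNT4c-KG and 14625 to 16491 in SCNT4c-TDG. The SCNT4c sum was mostly *ZP4*, which was at 0 in PFF and 74232-fold higher in SCNT4c on the log2(value + 1) scale. That sum therefore describes this gene more than the markers as a set. Of the 6 tested markers, 1 was higher and 1 lower in SCNT4c-KG than in SCNT4c, *ZP3* rising 26.7-fold and *ZP4* falling 2.21-fold, and 2 were lower and none higher in SCNT4c-TDG. Their part in the result was not tested. The fibroblast markers summed to 4236 to 5448 in SCNT4c, 2476 to 3592 in SCNT4c-KG and 1618 to 2148 in SCNT4c-TDG. Of 7 tested, 4 were lower in SCNT4c-KG than in SCNT4c and 2 higher (*VIM* 3.01-fold and *THY1* 6.79-fold), and 3 were lower and none higher in SCNT4c-TDG, and their part was not tested either.

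The treated groups were also set against each other. The *DNMT1* entry was 12.2-fold and *UHRF1* 9.25-fold lower in SCNT4c-TDG than in SCNT4c-KG, and *UHRF2* was 3.98-fold higher. These 3 of 6 genes changed, where 16.2% of all features did, 7.07% higher and 9.13% lower (1340 of 3070 higher, but 2036 of 3193 with library totals made equal). The log2 fold changes were -3.61 (SE 0.75, limma adjusted p = 0.0044) for the *DNMT1* entry, -3.21 (SE 0.961, adjusted p = 0.033) for *UHRF1* and 1.99 (SE 0.582, adjusted p = 0.030) for *UHRF2*. Of these, the *DNMT1* entry alone kept its call without any single library of the 2 groups, and its locus sum was lower (log2 fold change -1.49) without passing (adjusted p = 0.067). The *UHRF2* call was lost without each of the 6 libraries in turn (adjusted p of 0.059 to 0.11), and that of *UHRF1* without SCNT4c-KG replicates 1 or 2 or SCNT4c-TDG replicates 1 or 2 (0.095 to 0.14). *DNMT3B* (1.34, 95% interval -0.13 to 2.80), *MBD2* (-0.84, -1.76 to 0.09) and *MBD1* (2.35, 0.23 to 4.46) did not pass at limma adjusted p of 0.21, 0.21 and 0.12. Without SCNT4c-KG replicate 1, which holds most *MBD1* reads of its group, *MBD1* passed, at 3.42 on the log2 scale (limma adjusted p = 0.035).

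Several other genes of the pathway were read from the same fits, by gene entry without the assembled transcripts at their loci, with those of lowest adjusted p in each list named. Among the other methyl-CpG readers, *MBD4*, a glycosylase that removes thymine mispaired at CpG sites, was at 327 ± 5.72 (SD, n = 3) in PFF, 7.51 ± 3.18 in SCNT4c, 288 ± 54.2 in SCNT4c-KG and 329 ± 72.2 in SCNT4c-TDG. Its log2 fold change was 5.14 in SCNT4c-KG (limma adjusted p = 1.1e-05) and 5.33 in SCNT4c-TDG (adjusted p = 9.4e-06) against SCNT4c, 2 comparisons that share their control libraries. *ZBTB33* (Kaiso), which binds methylated CpG through zinc fingers, fell by 1.38 in SCNT4c-KG (adjusted p = 0.049), a call lost with quantile normalisation, edgeR and DESeq2, and by 2.58 in SCNT4c-TDG (adjusted p = 0.0016). In each of these comparisons 1 of the 5 tested readers was higher and 1 lower. Of all features, 17.6% were higher and 19.6% lower in SCNT4c-KG, and 15.7% higher and 17.6% lower in SCNT4c-TDG. The medians of the readers were 0.35 and -0.69 beside -0.30 and -0.26 over all features. Without SCNT8c replicate 3 in the fit, or with quantile normalisation, equal totals or DESeq2, 2 of the 5 were higher in SCNT4c-TDG. Between SCNT4c and PFF, 2 of 6 tested readers were higher and 3 lower, where 39.7% of all features were higher and 38.5% lower. Among those lower, *MBD4* fell by 5.35 (limma adjusted p = 2.2e-05).

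Of the partners of the methyltransferases and the factors that shield imprints, *DPPA3*, an oocyte protein that limits UHRF1 on chromatin, was listed at 0 in PFF and was at 4897 ± 1167 (SD, n = 3) in SCNT4c. It rose by 2.28 in SCNT4c-KG and by 2.85 in SCNT4c-TDG on the log2 scale (limma adjusted p = 0.00067 and 0.00011), to 23345 ± 1902 and 34780.4 ± 3396. *HELLS*, a remodelling ATPase needed for normal methylation, rose by 1.53 in SCNT4c-KG (adjusted p = 0.00092), and *CDCA7*, its activator, was lower in SCNT4c-TDG (-0.99, adjusted p = 0.017), short of the required fold. Of 4 tested genes in this list, 2 were higher and 1 lower in SCNT4c-KG, where 17.6% of all features were higher and 19.6% lower. The lower call was lost with quantile normalisation and DESeq2. In SCNT4c-TDG 1 was higher, where 15.7% of all features were. There 2 were higher with quantile normalisation, equal totals or DESeq2, or without SCNT8c replicate 3 in the fit. Against PFF, 4 of 6 were higher in SCNT4c and 2 lower, where 39.7% of all features were higher and 38.5% lower. Only 1 was lower with equal totals, edgeR or DESeq2. Among those higher, *CDCA7* rose by 2.60 (limma adjusted p = 1.5e-05).

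Of the NuRD subunits, the partners of MBD2 and MBD3, 8 were tested. Of these, 4 were lower and none higher in SCNT4c-TDG than in SCNT4c, where 17.6% of all features were lower and 15.7% higher. Their median was -0.98 beside -0.26 over all features. Only 3 were lower when libraries were scaled by quantiles, to equal totals or with DESeq2. In SCNT4c-KG 1 was higher and 1 lower, where 17.6% of all features were higher and 19.6% lower. With quantiles, equal totals or edgeR, 2 were lower there. *GATAD2B*, the subunit that bridges MBD2 and the remodeller, fell by 2.33 in SCNT4c-TDG (limma adjusted p = 2.4e-05) and *MTA2* by 1.68 (adjusted p = 0.0039). In SCNT4c-KG, *RBBP4*, a histone-binding subunit, fell by 1.10 (adjusted p = 0.0041), and *GATAD2B* was lower (-0.96, adjusted p = 0.015), short of the required fold. Against PFF, 3 of the 8 were higher in SCNT4c and 5 lower, where 39.7% of all features were higher and 38.5% lower. With quantile normalisation, equal totals, edgeR or DESeq2, 4 were lower. Among the 8, *CHD3*, a remodelling ATPase, fell by 8.79 (limma adjusted p = 7.9e-07), and *GATAD2B* rose by 3.26 (adjusted p = 1.5e-06).

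**Figure D4:**
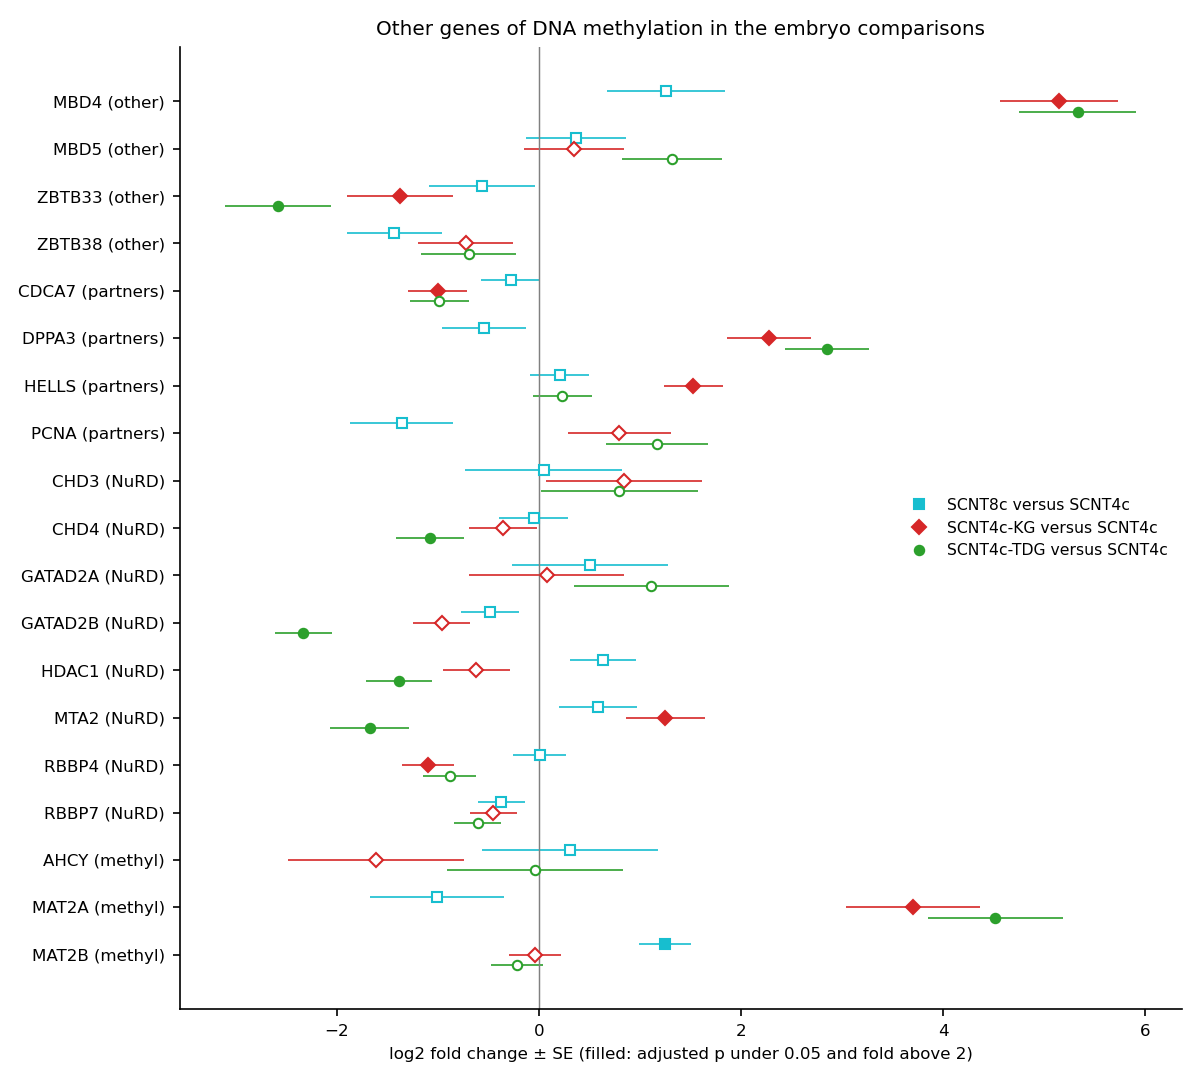
Log2 fold change ± SE of the other pathway genes reported here against SCNT4c (squares SCNT8c, diamonds SCNT4c-KG, circles SCNT4c-TDG), with filled symbols for changed genes and the list of each gene in brackets. *MBD4* lies at 5.14 and 5.33 and *MAT2A* at 3.70 and 4.51 in the treated groups.

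Among the enzymes of methyl donor supply, *MAT2A*, which makes S-adenosylmethionine, rose by 3.70 in SCNT4c-KG (limma adjusted p = 0.00060) and by 4.51 in SCNT4c-TDG (adjusted p = 0.00013), from 11.9 ± 6.24 (SD, n = 3) to 157 ± 30.7 and 284 ± 96.0. *AHCY*, which clears the product of methylation, did not pass in SCNT4c-KG (-1.61, adjusted p = 0.16). Of 4 tested, 1 was higher in SCNT4c-KG and 2 in SCNT4c-TDG (1 with edgeR), where 17.6% and 15.7% of all features were higher. *MAT2B*, the regulatory partner of MAT2A, rose by 1.25 in SCNT8c (adjusted p = 0.021) and was the single pathway gene of 22 tested that this fit called there, a share near the 5.79% of all features, while DESeq2 also called a reader. Without SCNT8c replicate 3, *MAT2B* was at 1.39 (limma adjusted p = 0.00054), and 3 of the 22 were called higher and 4 lower, where 32.3% of all features were called. Of the oxidation and excision list only *TDG* itself could be tested, since *TET1*, *TET2* and *TET3* were listed at 0 in every library. *TDG* rose by 5.13 in SCNT4c-TDG (limma adjusted p = 5.7e-08) and by 1.46 in SCNT4c-KG (adjusted p = 0.0020), 2 comparisons with the same SCNT4c libraries. Against PFF, 1 of 6 genes of methyl donor supply was higher in SCNT4c (2 with DESeq2) and 4 were lower. Of all features, 39.7% were higher there and 38.5% lower. Among the genes that were lower, *AHCY* fell by 3.70 (limma adjusted p = 2.4e-06).

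The treated groups also differed from each other in genes of the pathway. *MTA2* fell by 2.93 in SCNT4c-TDG against SCNT4c-KG (limma adjusted p = 0.00020), *GATAD2B* by 1.37 (adjusted p = 0.0042) and *HELLS* by 1.30 (adjusted p = 0.0071). These were 2 of 8 NuRD subunits and 1 of 4 partners tested, where 9.13% of all features were lower and 7.07% higher. The *HELLS* call was lost with library totals made equal. *MTA2* was at 1443 ± 303 (SD, n = 3) in SCNT4c-KG, 197 ± 79.9 in SCNT4c-TDG and 601 ± 82.6 in SCNT4c, so that it lay on opposite sides of the untreated embryos in the 2 treatments.

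The genes whose log2 values followed each member most closely over the 12 embryo libraries were named by the highest Pearson r among 6631 or 6632 genes with a mean of at least 50. The 12 points are 4 groups of 3 that share the treatments, so these values are a description. For *UHRF2* they were *VPS50* (r = 0.988, Spearman rho = 0.958) and *NSUN7* (0.986, 0.972), and for *DNMT3B* *CDK2AP1* (0.966, 0.930) and *SLC6A15* (0.965, 0.888). For *DNMT1* they were *PSMC3* (0.984, 0.895) and *ZCCHC17* (0.982, 0.958), and for *MBD2* *MARVELD2* (0.944, 0.916) and *RPL30* (0.936, 0.965). *UHRF1* was followed less closely, by *NSRP1* (0.941, 0.902) and *RBFOX1* (0.936, 0.818), and *MBD1* by *IRF2BPL* (0.902, 0.930) and *PLA2G12A* (0.885, 0.783).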

How the data were processed

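RNA of PFF (TRIzol) and of pools of 30 embryos (PicoPure) was amplified as cDNA with the SMARTer Pico kit and sequenced. Per the labels and the study's methods, the authors trimmed the reads (Trimmomatic 0.39), mapped them to Sscrofa11.1 (STAR 2.5.3a), assembled transcripts (StringTie 2.1.2) and counted reads per feature with HTSeq. The deposited signal is this count divided by 1 factor per library, with 100% of values within 0.02 of a whole number of reads, so reads could be recovered. Of 43535 entries, 241 repeated gene IDs were dropped. The members and gene lists were chosen with earlier results of these data known.

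The test was limma 3.58.1 (R 4.3.3; trend) on log2(value + 1) for features whose mean reached 10, SCNT4c and PFF in a fit of 6 libraries and all embryo comparisons in a fit of 12. P-values were adjusted by Benjamini-Hochberg over all features. The study states in general that its experiments were repeated, but no source used here ties the libraries of a group to separate cultures or days, so p-values measure the spread between these samples only. Alternatives were edgeR 4.0.16 and DESeq2 1.42.0 on recovered reads, other pseudocounts (0.1, 10), minimum means and scalings, other sets of libraries, and sums over a locus. The fits without SCNT8c replicate 3, for the members in the other embryo comparisons and for the pathway lists, were added after the data were seen. All 9 genes are reported, and the 2 listed genes with the lowest adjusted p per pathway list and comparison, and the 2 genes most correlated with each member, are named, except for some genes and a promoter that are not reported here. The fit was tested on simulated data. Locations and promoters come from RefSeq release 106, which has the coordinates of the deposited table.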

Additional observations from a re-analysis of the deposited data

How the results depend on the processing

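Over all alternatives, of which the fit without SCNT8c replicate 3 was added after the data were seen, 467 of 543 values of single genes kept their direction and side of the threshold, 51 kept the direction but lost the call, 13 kept it and gained the call, and 12 turned direction. In SCNT4c against PFF, a minimum mean of 50 left 3 genes changed, the locus sum of *DNMT1* turned to 2.33, *DNMT3A* turned with quantile normalisation (-1.34) and ran from -0.24 to 0.31 with single libraries left out, and *UHRF1* turned with equal totals (0.12), edgeR (0.32) and DESeq2 (0.36). In SCNT8c against SCNT4c, leaving out single libraries gave 0 to 3 changed genes, and *DNMT1* was at -1.10 as a locus sum and ran from -0.26 (without SCNT4c library c) to 0.87 with single libraries left out. In SCNT4c-KG against SCNT4c, *MBD1* was at -0.046 as a locus sum and ran from -0.54 (without SCNT4c-KG replicate 1) to 1.35. In SCNT4c-TDG against SCNT4c, the changed genes numbered 0 with a pseudocount of 0.1, 1 with all features above 0 tested and 1 with locus sums. They numbered 5 without SCNT8c replicate 3 in the fit, where 40.2% of all features changed in place of 33.3%. With single compared libraries left out they numbered 0 to 1. In SCNT4c-TDG against SCNT4c-KG, leaving out single libraries gave 1 to 2. The cause of these moves was not tested, except that a minimum mean of 50 left 4 of the 9 genes to test against PFF.

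A replicate block could be fitted only for SCNT4c-TDG against SCNT4c-KG, since the SCNT4c columns carry no number. It gave 4 changed genes, adding *DNMT3B* (limma adjusted p = 0.024), which the fit of these 2 groups without the block also called (0.020), and changed no other call. Deviations of same-numbered libraries of these groups correlated at -0.006, 0.003 and 0.017, so no pairing by number was seen over all features. A pairing that affects only some genes was not tested. The median log2 fold change of all features was 0.07 in SCNT4c against PFF and moved to 0.67 with equal totals, 0.96 with edgeR and 1.01 with DESeq2, and in the embryo comparisons it was -0.31 in SCNT8c, -0.30 in SCNT4c-KG and -0.26 in SCNT4c-TDG against SCNT4c and -0.02 between the treatments, and moved at most to 0.07 in SCNT8c with DESeq2 and to 0.32 between the treatments with equal totals. Entries of a few reads, *DNMT3L* and *MBD3* among them, limit what these libraries can show.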
